A study of Caenorhabditis elegans with 58 samples.

Results

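The subject is 6 microRNA genes of Caenorhabditis elegans, mir-36, mir-37, mir-38, mir-39, mir-40 and mir-41, which stand beside mir-35 in one cluster. They were chosen by name, and each gene has 2 counted products, the 3p arm, called here the guide (mir-36_3p to mir-41_3p), and the 5p* arm, called here the passenger (mir-36_5p* to mir-41_5p*). The star marks the arm that is usually discarded. That makes 12 arms, 6 guides and 6 passengers, of 276 miRNA arms in the table, and all 12 passed the filter on low counts in both parts of the study. The first part held 42 whole-animal libraries of L1 larvae and embryos from 5 edited strains and from the wild-type strain N2. By the labels' genotypes, the edited strains carry the mir-35 alleles cdb2 and, in addition, cdb4 (seed_rev), cdb6 (seed_mut), cdb72 (mut_3'), cdb78 (mir-82_3') or cdb95 (seed_rev_no_bulge); the labels do not say what cdb2 changes, and wild type lacks it. Each edited strain had 3 libraries per stage and N2 had 6. The second part held 16 libraries of ebax-1(tm2321), labelled a null, and of N2 at 4 stages (2-8 cell, comma and pretzel embryos and starved L1 larvae), with 2 libraries for each genotype at each stage. By the labels, hermaphrodite worms were bleached to obtain embryos of mixed age, which were collected or kept overnight without food until they were starved L1 larvae. How the 2-8 cell, comma and pretzel embryos were staged and collected is not stated in the labels. The genotypes name alleles of mir-35 and none of the 6 genes described here.

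A miRNA hairpin gives a duplex of 2 arms, of which the guide is held by an Argonaute protein and recognises targets mainly through its seed, near its 5' end, while the passenger is usually discarded. The genes mir-35 to mir-42 form a family with a common seed that is needed for embryonic development, and its guides are abundant in embryos and scarce in larvae. EBAX-1 is the worm counterpart of mammalian ZSWIM8, a substrate receptor of a ubiquitin ligase that promotes the decay of some miRNAs. In the reference gene table, mir-35 to mir-41 follow each other on chromosome II with no other miRNA gene between them, whereas mir-42 lies elsewhere on that chromosome, next to mir-45 and mir-43.

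Total miRNA counts ranged from 3447390 to 20402783 per library in the first part and from 170758 to 4059401 in the second. Of the tissue and stage markers, the muscle miRNA mir-1 was abundant at 63878 to 250702 CPM (counts normalised for library size) in L1 and 69346 to 169935 CPM in embryos, and lin-4, which times larval development, was at 3.04 to 13.4 CPM in L1 and 0 to 1.91 CPM in embryos. In whole animals, fewer cells that express a miRNA and less of it per cell cannot be told apart. The labels do not say that replicates came from separate cultures, so p-values measure the spread between these samples. Replicate 1 of mir-82_3' L1, replicate 1 of seed_rev_no_bulge L1 and replicate 5 of wild-type embryos had the lowest scaling factors (0.648, 0.749 and 0.689), and results that change without them are given without them as well.

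In wild type, all 6 guides and all 6 passengers were lower in L1 than in embryos. Together the 6 guides made up 0.493 to 2.04% of all miRNA counts in the 6 L1 libraries, with a median of 0.587%, against 17.7 to 27.5% in the 6 embryo libraries, with a median of 23.9%. Ordered by their medians in embryos, the guides were mir-37, mir-39, mir-40, mir-36, mir-38 and mir-41. A read spans a whole arm, so counts of different arms were compared without division by length. Whether all arms were captured equally well was not tested, so orders between arms are orders of counts. The most abundant guide in embryos, mir-37_3p, had 1262 to 5764 CPM in L1 (median 1605) and 83087 to 143929 CPM in embryos (median 119377). The guide mir-39_3p had 1990 to 7025 CPM in L1 (median 2421) and 74453 to 96209 CPM in embryos (median 85208). By its median mir-39_3p was the most abundant of the 6 in L1, though the ranges of these 2 guides overlapped at both stages. The guide mir-40_3p had 511 to 2161 CPM in L1 (median 708) and 12236 to 26950 CPM in embryos (median 24596). The guide mir-36_3p had 177 to 1137 CPM in L1 (median 261) and 14960 to 23793 CPM in embryos (median 16809). The ranges of mir-40_3p and mir-36_3p overlapped at both stages, and in embryos both lay below those of mir-37_3p and mir-39_3p. The guide mir-38_3p was scarcer, with 31.9 to 149 CPM in L1 (median 42.4) and 1407 to 6696 CPM in embryos (median 2734). The rarest guide was mir-41_3p, with 2.59 to 11.2 CPM in L1 (median 4.68) and 102 to 337 CPM in embryos (median 280). The ranges of mir-38_3p and mir-41_3p overlapped with no other guide within a stage. For each of the 6 guides, the highest L1 library lay below the lowest embryo library, and this held over all 21 L1 and 21 embryo libraries of the 6 strains. The share of all arms that separate in this way was not computed.

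**Figure D1:**
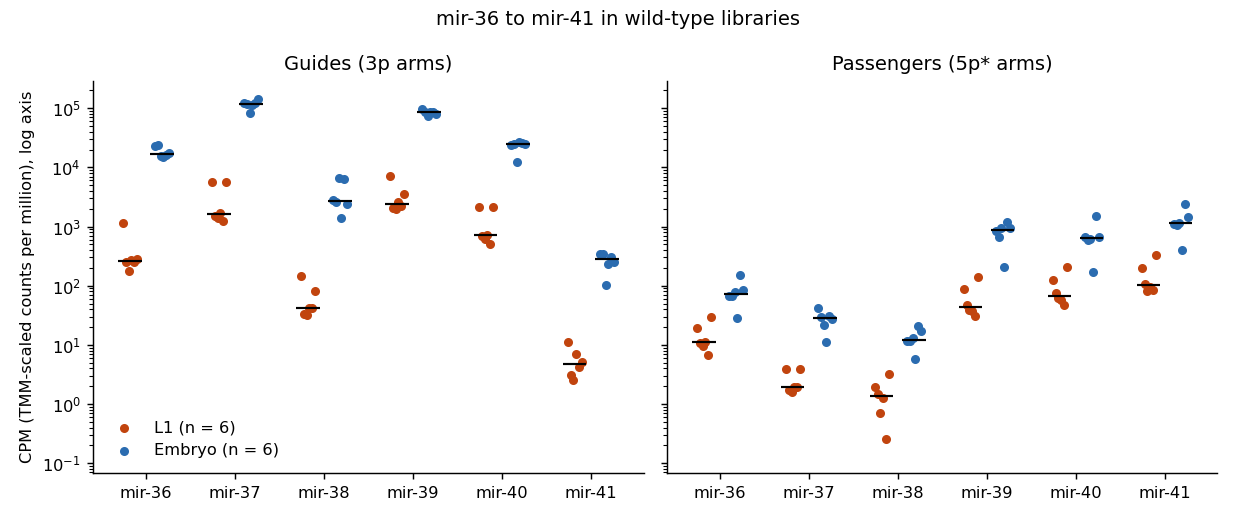
Level of each guide (left) and passenger (right) in wild-type L1 and embryo libraries, in CPM on a log axis, with 1 point per library (n = 6 per stage) and a black bar at the median. For every guide the 6 L1 points lie under all 6 embryo points, and the guide of mir-41 is the only one whose points lie below those of its own passenger.

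The estimated loss differed between guides. The differences between guides were not called when 6 sets of libraries with consecutive sample identifiers were taken as the units. That test has a smallest possible p that leaves it little room for calls, as given below. Relative to embryos, L1 retained 1.70% of the mir-38 guide (95% interval 0.810 to 3.57), 2.13% of mir-36 (1.2 to 3.78), 2.13% of mir-41 (1.15 to 3.94) and 2.48% of mir-37 (1.27 to 4.84). More remained of mir-39, at 3.82% (2.43 to 6.0), and of mir-40, at 4.97% (2.48 to 9.97). On the log2 scale the 6 guides changed by -4.33 to -5.88 with a median of -5.44, and the 6 passengers by -2.45 to -3.65 with a median of -3.15, while the median over all arms tested was -0.12. All 12 were called lower by edgeR's quasi-likelihood test with Benjamini-Hochberg adjustment over 229 arms (adjusted p from 8.08e-15 for the mir-39 guide to 1.21e-04 for the mir-36 passenger). Of all arms tested, 31% were called lower. DESeq2 called all 12 as well, among 133 arms in either direction. All 12 calls held when any single library or the lowest-factor embryo library was left out and with the spike-ins as the scale.

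Whether 2 guides fell by different amounts was tested within libraries, where the ratio of 2 guides needs no scaling. In wild type, 7 of the 15 pairs differed (exact permutation over all splits of 6 L1 and 6 embryo libraries, two-sided, adjusted over 15 pairs), and all 7 set one of mir-36, mir-37, mir-38 or mir-41 against mir-39 or mir-40. The ratio of mir-36 to mir-40 in L1 was 0.405 times that in embryos (adjusted exact p = 0.0108), mir-37 to mir-40 0.468 times (adjusted exact p = 0.0108), and mir-36 to mir-39 0.505 times (adjusted exact p = 0.0108), which rest on the smallest p the splits allow, 0.00216. No pair within mir-36, mir-37, mir-38 and mir-41 passed, and neither did mir-39 against mir-40 (0.801 times, adjusted exact p = 0.436). The 5 edited strains gave 15 further L1 and embryo pairs. Over the 6 strains, with labels permuted within strain 100000 times, 11 of the 15 pairs differed. The ratio of mir-36 to mir-40 was 0.302 times, of mir-38 to mir-40 0.319 times and of mir-37 to mir-40 0.395 times that in embryos (permutation, adjusted p = 3e-05, 7.5e-05 and 3e-05), where 1e-05 is the smallest raw p that the resampling can give. Among libraries of the same strain and replicate number, mir-36 and mir-37 each fell more than mir-39 and more than mir-40 in 21 of 21 pairs. The guide of mir-38 fell more than mir-39 in 20 of 21 pairs and more than mir-40 in 19, and mir-41 fell more than mir-40 in 16. The guide of mir-40 fell least of the 6 in 14 of 21 pairs. Over the 6 strains mir-40 also fell less than mir-39 (mir-39 to mir-40 0.680 times, permutation, adjusted p = 0.00724), and mir-36 fell more than mir-41 (0.683 times, permutation, adjusted p = 9.94e-04) and more than mir-37 (0.766 times, permutation, adjusted p = 0.0487). The wild-type count of 7 pairs fell to 3 when L1 replicate 1, 2 or 3 or embryo replicate 2 or 5 was left out, to 4 without L1 replicate 4 or 6, and was 8 without embryo replicate 3. Over 6 strains it stayed at 10 or 11 when any 1 strain was left out. The labels name no batch. The sets were formed here by cutting the order of sample identifiers wherever the wild-type replicate number changes. Each wild-type replicate thus belongs to another set, and every set holds L1 and embryo libraries of 3 or 4 strains. With the replicate as a block, 0 of the 15 wild-type pairs passed (exact sign changes of 6 differences, lowest adjusted p = 0.0938). Libraries of 1 set and stage deviated together, with a correlation over 0.1 in 20 of 27 pairs of L1 libraries and 24 of 27 of embryo libraries, so the permutation within strain treats related libraries as independent and its p-values are too small. With the 6 sets as the units, 0 of the 15 pairs passed over the 6 strains (exact sign changes, lowest adjusted p = 0.0781), where 6 units allow no raw p under 0.0312. After adjustment over 15 pairs, a call needs most of the pairs to reach that smallest p. Neither this test nor that with the replicate block can therefore decide whether single pairs differ. With the 6 sets, mir-36 against mir-39 and mir-40, mir-37 against mir-39 and mir-40, mir-38 against mir-40 and mir-39 against mir-40 each had the same sign in 6 of 6 sets. The sign agreed in 5 of 6 sets for mir-36 against mir-41, mir-38 against mir-39 and mir-41 against mir-39 and mir-40. For mir-36 against mir-37 it agreed in only 4 of 6 sets.

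**Figure D2:**
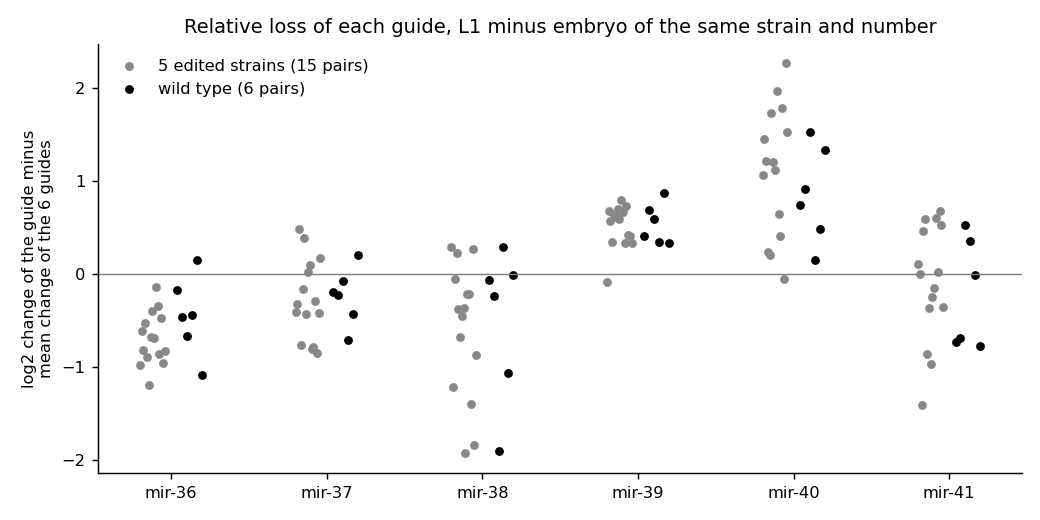
For each L1 and embryo pair of the same strain and replicate number, the log2 change of each guide minus the mean log2 change of the 6 guides. Grey points are the 15 pairs of edited strains and black points the 6 wild-type pairs. Points of mir-39 and of mir-40 lie above 0 (a smaller loss than the mean of the 6) in 20 of 21 pairs each, and those of mir-36 lie below it in 20 of 21.

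Against the wild-type mir-35 guide, 0 of the 6 guides differed in the extent of loss (exact permutation, adjusted over 6). One, mir-40, had an unadjusted exact p of 0.0195 with an adjusted exact p of 0.117 and a ratio to mir-35 in L1 that was 1.67 times that in embryos, and it was called when embryo replicate 3 was left out. The mir-35 guide retained 2.98% (1.49 to 5.96), inside the range of the 6. The family member outside the cluster, mir-42, retained 18% of its guide (12.5 to 25.9), an interval that lies above those of the 6 cluster guides, although the difference itself was not tested.

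In the first part of the study the loss of the guides was deeper than that of their own passengers in every gene. In wild type the guide-to-passenger ratio of mir-36 in L1 was 0.0952 times that in embryos (adjusted exact p = 0.00325), and mir-41 (0.175 times), mir-38 (0.174 times), mir-37 (0.212 times) and mir-40 (0.304 times) followed with an adjusted exact p of 0.00325 or 0.00519. The least shift was that of mir-39 (0.442 times, adjusted exact p = 0.00866). All 6 genes passed in wild type, and all 6 passed over the 6 strains, with ratios of 0.0610 to 0.309 times (permutation within strain, adjusted p = 1e-05 for each, the smallest it can give). The guide fell more than the passenger in 21 of 21 pairs for 5 genes and in 20 of 21 for mir-40. No alternative setting and no left-out library or strain changed these counts, and with the 6 identifier sets as the units all 6 genes passed (exact sign changes, adjusted p = 0.0312, the smallest possible). Over all 42 libraries, the 6 passengers together were 2.61 to 21.4% of the counts of both arms in L1 (median 4.38%), against 0.315 to 2.47% in embryos (median 1.07%). The 2 highest L1 values were those of the libraries of low scaling factor, and without the 3 such libraries the shares were 2.61 to 8.48% in L1 (median 4.33%) and 0.315 to 2.47% in embryos (median 1.06%).

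**Figure D3:**
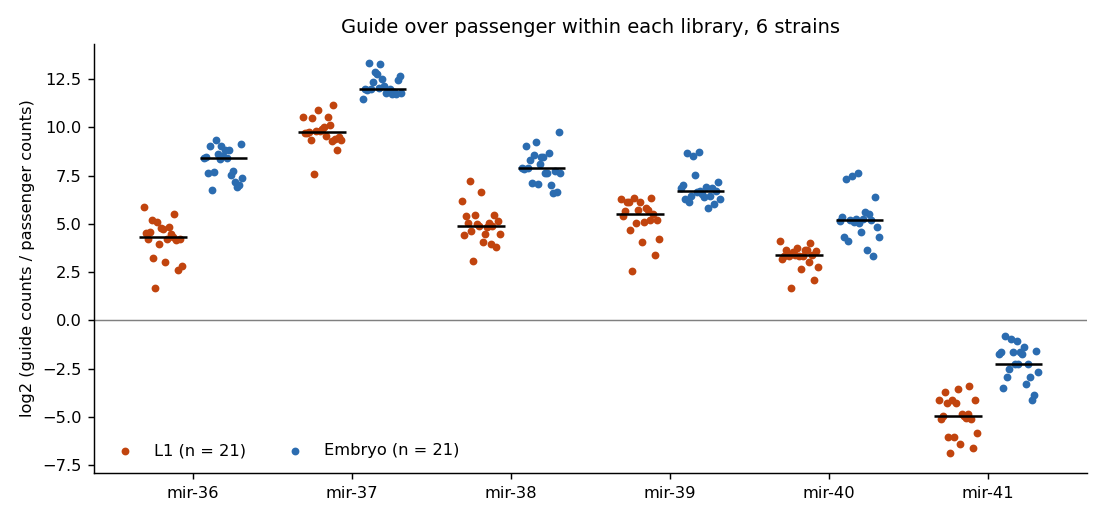
Log2 of guide counts over passenger counts (0.5 added to each) within each of 21 L1 and 21 embryo libraries of 6 strains; black bars are medians and the grey line marks equal counts. The L1 median lies below the embryo median in all 6 genes, and both stages of mir-41 lie below the line.

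The genes differed widely in how strongly one arm dominated. Over the 42 libraries, the mir-37 guide was 99.5 to 99.96% of its gene's counts in L1 and 99.97 to 99.99% in embryos. The guide share of mir-38 was 89.4 to 99.4% in L1 and 99.0 to 99.9% in embryos, and that of mir-36 76.3 to 98.3% in L1 and 99.1 to 99.8% in embryos. The guide share of mir-39 was 85.6 to 98.8% in L1 and 98.3 to 99.8% in embryos. For mir-40 it was 76.0 to 94.6% in L1 and 91.0 to 99.5% in embryos. Without the libraries of low scaling factor the lowest L1 guide share was 87.5% for mir-36, 94.0% for mir-38, 94.3% for mir-39 and 86.2% for mir-40. The exception was mir-41, in which the arm listed as the guide was 0.831 to 8.75% of the gene's counts in L1 (median 3.16%) and 5.35 to 36.1% in embryos (median 17.6%). In wild type its guide had 130, 60, 40, 132, 67 and 25 counts in L1 replicates 1 to 6, against 2291, 2084, 1266, 1753, 1326 and 1654 counts of its passenger. In embryos the guide had 2821, 5128, 1400, 1490, 2220 and 1044 counts, against 9316, 16120, 15726, 2632, 17174 and 5976 of the passenger. The 5p* arm of mir-41 was thus the more abundant arm in all 42 libraries of the first part, though not in all staged libraries, and it alone made up 42.3 to 50.9% of all passenger counts of the 6 genes in L1 and 37.7 to 54.0% in embryos. Levels of the mir-41 passenger in wild type were 82.0 to 335 CPM in L1 (median 101) and 404 to 2407 CPM in embryos (median 1128).

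The guides showed the same direction in the 5 edited strains. In each edited strain all 6 guides were called lower in L1 than in embryos (edgeR, adjusted over 229 arms), with a median log2 change of the 6 of -5.35 (seed_rev), -5.51 (seed_mut), -5.84 (mut_3'), -5.0 (mir-82_3') and -4.96 (seed_rev_no_bulge). Of all arms, the share called lower was 26.2% (seed_rev), 25.3% (seed_mut), 23.6% (mut_3'), 17.9% (mir-82_3') and 22.3% (seed_rev_no_bulge). The passengers were called lower in 6 of 6 genes in seed_rev, seed_mut and mut_3', in mir-37 and mir-38 only in seed_rev_no_bulge, and in 0 of 6 in mir-82_3' (0 at an unadjusted p under 0.05 and 0 by DESeq2). With spike-in scaling only the mir-37 passenger was still called in mut_3', beside the 6 guides. Averaged over the 6 strains all 12 arms were called lower, where 39.7% of arms were. No member's change was called different between an edited strain and wild type in the test of that difference: edgeR called 0 of 12 in each strain, with 0 (seed_rev), 0 (seed_mut), 1 (mut_3'), 6 (mir-82_3') and 1 (seed_rev_no_bulge) at an unadjusted p under 0.05 and 0 by DESeq2 in each. Of all arms that test called 0.437% in seed_rev and in seed_mut and 0% in the other 3 strains. At an unadjusted p under 0.05 it had 5 (seed_rev), 4 (seed_mut), 3 (mut_3'), 15 (mir-82_3') and 5 (seed_rev_no_bulge) of 229 arms. For mir-82_3' the 6 were the passengers, with differences of 2.09 to 2.97 on the log2 scale, and 4 members were called when mir-82_3' L1 replicate 2 was left out (0 without any other single library). The replicates of mir-82_3' were unlike: the log2 changes of the 6 passengers were 0.28 to 2.29 in replicate 1, whose L1 library had a low scaling factor. They were -4.03 to -2.88 in replicate 2 and -2.87 to -0.93 in replicate 3. Without the libraries of low scaling factor more members were called lower in mir-82_3' and in seed_rev_no_bulge, as given below.

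**Figure D4:**
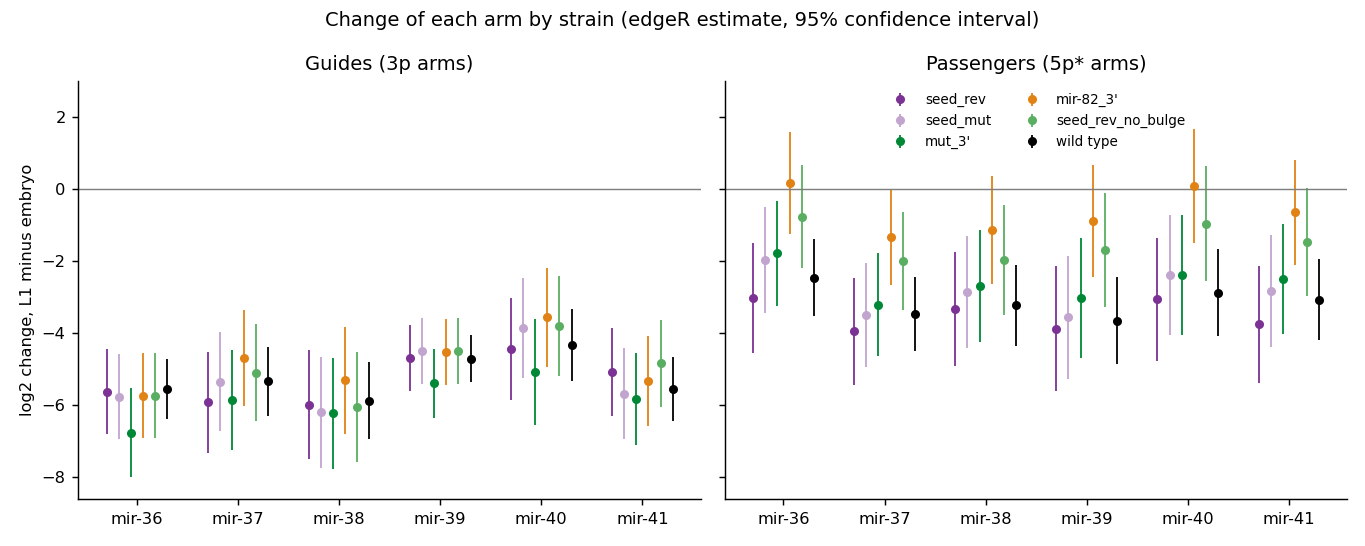
Log2 change (L1 minus embryo) of each guide (left) and passenger (right) in 5 edited strains (n = 3 per stage) and wild type (n = 6), from the fit of all 42 libraries with 95% confidence intervals. The guide intervals lie below 0 in every strain, and the passenger intervals of mir-82_3' all reach 0 or beyond.

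In embryos, none of the 12 members was called between any edited strain and wild type (edgeR 0, with 0 at an unadjusted p under 0.05 and 0 by DESeq2 in all 5 strains), where 0.437 to 0.873% of all arms were called. The mean of the 5 edited strains minus wild type lay between -0.19 and 0.15 on the log2 scale for the 6 guides and between -0.24 and 0.01 for the 6 passengers. For the mir-37 guide the interval of that difference was -0.63 to 0.72, and for the mir-39 guide it was -0.47 to 0.47. In L1, edgeR called 0 members in seed_rev, seed_mut, mut_3' and seed_rev_no_bulge, and DESeq2 0 as well. The unadjusted count was 0 in the first 3 and 6 in seed_rev_no_bulge, beside 4, 8, 3 and 27 of all 229 arms in these 4 strains. In these 4 strains 0.437 or 0.873% of all arms were called, and for the mean of the 5 edited strains edgeR and DESeq2 called 0 members, 0 at an unadjusted p under 0.05, where 0.873% of arms were called. In mir-82_3' L1, the passengers of mir-39 (log2 2.29, SE 0.64), mir-41 (2.08, SE 0.60) and mir-37 (1.93, SE 0.56) were called higher than in wild type (edgeR, adjusted p = 0.0456 for each), where 3.06% of all arms were called higher, and the 6 guides were not (-0.01 to 0.82).

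That call changed with the settings and with single libraries. It was lost (0 members) with the replicate block, library totals, TMM factors without the family, spike-in scaling, no filter on low counts and the compared groups only. DESeq2 called 6 members, among 11 arms in either direction. The mir-39 passenger was at 713, 30.6 and 186 CPM in mir-82_3' L1 replicates 1, 2 and 3, against 31.0 to 139 CPM in wild-type L1, and the mir-41 passenger was at 1444, 82.5 and 376 CPM, against 82.0 to 335 CPM. Replicate 1 was above every wild-type library, replicate 3 just above them and replicate 2 at their low end. Without replicate 1, 0 members were called, and without all 3 libraries of low scaling factor the differences were 0.71 for the mir-39 passenger and 0.55 for the mir-41 passenger on the log2 scale. The count was also 0 without wild-type L1 replicate 2, 3, 4 or 5, and it was 6 without mir-82_3' replicate 2 or wild-type replicate 6. In mir-82_3' replicate 1 the spike-in counts were 0.467 of the miRNA counts, against 0.0899 to 0.380 in the other L1 libraries, and their part in the result was not tested. The 6 passengers summed to 3284 CPM in mir-82_3' replicate 1 and to 2221 CPM in seed_rev_no_bulge replicate 1, against 162 to 939 CPM in the other 19 L1 libraries. Without the libraries of low scaling factor, 10 members were called lower in L1 than in embryos in mir-82_3' and 10 in seed_rev_no_bulge.

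The level of mir-38 relative to mir-37 differed between sets of embryo libraries. The mir-38 guide was 1.04 to 3.58% of the mir-37 guide in all L1 libraries. The sets are those formed here from the order of sample identifiers. In embryos it was 4.01 to 8.06% in the 3 libraries of the third set and 4.15 to 8.29% in the 4 libraries of the fifth. In the other 4 sets it was 0.921 to 3.31%. Each of these sets holds wild type and edited strains. In wild-type embryos the mir-38 guide was at 6696 and 6422 CPM in replicates 3 and 5, and at 2824, 2644, 1407 and 2409 CPM in replicates 1, 2, 4 and 6. The fall of mir-38 itself in wild type was called without any single library and with the replicate, and thus the set, as a block.

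In the staged series the mean of each of the 6 guides was lowest in starved L1 and highest at the 2-8 cell or the comma stage, in both genotypes. The order of the stages between differed among guides: in the null mir-36 averaged 6394 CPM at pretzel and 6205 CPM at the 2-8 cell stage, and in wild type mir-41 averaged 62.6 CPM at pretzel and 54.2 CPM at comma. The guide of mir-37 had 41488 and 41205 CPM in ebax-1 null and 24620 and 30174 CPM in wild type at the 2-8 cell stage. At the comma stage it had 59329 and 48005 CPM in the null and 54298 and 33479 CPM in wild type. At the pretzel stage it had 30711 and 13821 CPM in the null and 10032 and 10228 CPM in wild type, and in starved L1 9084 and 8313 CPM in the null and 3714 and 2843 CPM in wild type. Libraries of both genotypes in starved L1 thus lay below all of their earlier stages. The guide of mir-39 followed the same course, with 11679 and 12088 CPM in the null and 9448 and 3807 CPM in wild type in starved L1, against 46091 and 49085 CPM in the null and 52702 and 42544 CPM in wild type at the comma stage. The 6 guides made up 10.6 to 20.3% of miRNA counts at the 2-8 cell stage, 11.1 to 13.2% at comma, 3.95 to 9.29% at pretzel and 1.23 to 3.39% in starved L1 (4 libraries each).

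**Figure D5:**
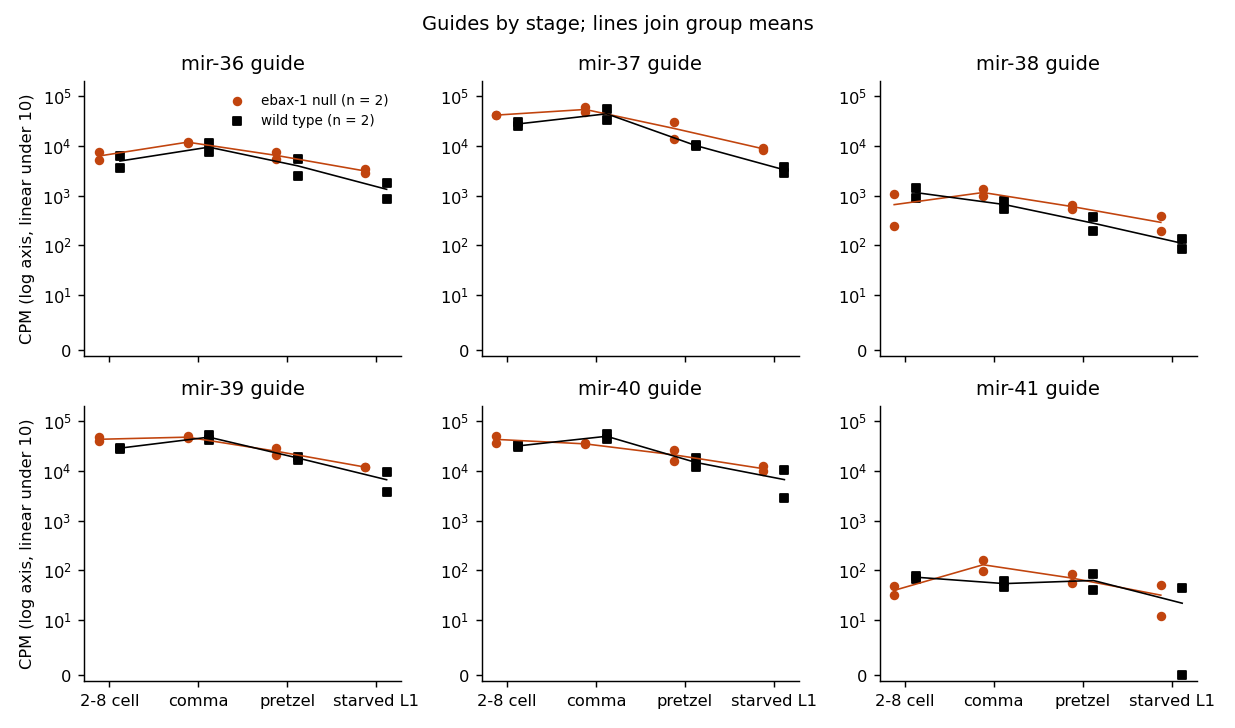
Level of each guide at 4 stages in ebax-1 null (orange circles) and wild type (black squares), in CPM on an axis that is linear below 10 and logarithmic above, with 1 point per library (n = 2 per genotype and stage) and lines through group means. Guides of mir-36, mir-37, mir-39 and mir-40 are lower in starved L1 than at comma in both genotypes.

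Few members were called in single steps. From the 2-8 cell to the comma stage, 0 of 12 members were called for the mean of both genotypes (0 at an unadjusted p under 0.05, 1 by DESeq2), where 35.9% of arms were called in either direction. From comma to pretzel only the mir-37 guide was called lower (log2 -1.69, SE 0.44, edgeR adjusted p = 0.0187), where 1.52% of arms were called lower. That count was 0 with spike-in scaling, 4 with TMM factors without the family and 2 by DESeq2. From pretzel to starved L1 the mir-37 guide was again the only member called (log2 -1.49, SE 0.44, edgeR adjusted p = 0.0275), where 3.03% of arms were. That count was 2 by DESeq2 and with TMM factors without the family, 3 with library totals, 5 with spike-in scaling and 6 with no filter. Of left-out libraries, the comma to pretzel count fell to 0 without either wild-type pretzel library, wild-type comma replicate 1 or ebax-1 null pretzel replicate 2, and was 2 without ebax-1 null pretzel replicate 1 or comma replicate 2. The pretzel to starved L1 count fell to 0 without ebax-1 null pretzel replicate 1 and was 5 to 8 without any other single library. Over both steps together, starved L1 minus comma, 5 of 6 guides were called lower: mir-37 (-3.18, SE 0.47), mir-39 (-2.42, SE 0.45), mir-36 (-2.37, SE 0.51), mir-38 (-2.29, SE 0.78) and mir-40 (-2.27, SE 0.46), with edgeR adjusted p between 1.29e-06 and 0.0297. Of all arms 12.6% were called lower, and the median over all arms was -0.90. The guide of mir-41, at -1.64 (SE 1.44), was not called. Each step counted within 1 genotype alone gave 0 of 12 members (edgeR); in wild type the unadjusted counts were 0, 3 and 4 and the DESeq2 counts 2, 1 and 1, and in the null they were 0, 1 and 1 with 0 by DESeq2. For these single-genotype steps the share of arms called in either direction was 21.7%, 0% and 0.505% in wild type and 10.1%, 0.505% and 0.505% in the null. At an unadjusted p under 0.05 there were 70, 27 and 28 of 198 arms in wild type and 50, 17 and 19 in the null. DESeq2 called 70, 19 and 16 arms in wild type and 48, 12 and 12 in the null. For the mean of both genotypes DESeq2 called 84, 24 and 23 arms. Muscle mir-1 was at 24621 to 51167 CPM at the later stages, against 1357 to 12069 CPM at the 2-8 cell stage, where the neuronal lsy-6 and mir-124 were at 0 in all 4 libraries. At the later stages lsy-6 was at 0 to 106 CPM and mir-124 at 0 to 26.0 CPM, so single later libraries also had 0. The larval lin-4 was at 0 to 6.44 CPM at the later stages, against 77.6 to 734 CPM at the 2-8 cell stage. It was not alone: of 6 tested guides of the let-7 family with lin-4, 5 were called lower at comma than at the 2-8 cell stage. Their median log2 change was -4.89 (edgeR, mean of both genotypes), where 35.9% of arms were called in either direction. The part of these 2-8 cell libraries in the first step was not tested.

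The make-up of the 6 guides in the staged series differed from that in the first part. The guide of mir-40 was 25.2 to 42.4% of the 6 in starved L1 and 27.0 to 36.7% at the 2-8 cell stage, beside 11.7 to 25.4% in L1 and 4.58 to 18.2% in embryos of the first part. The guide of mir-37 was 15.1 to 26.5% in starved L1 and 27.8 to 31.1% at the 2-8 cell stage, beside 28.2 to 51.2% in L1 and 40.4 to 53.5% in embryos of the first part. The parts were scaled separately, and the difference was not tested. In both parts mir-41 was the rarest guide.

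Passengers were sparse in the staged series. Of 96 passenger values 31 were 0, among them 13 of 16 for mir-38 and 7 of 16 for mir-37, where 3 counts, the limit a count of 0 allows for counting error only, equal 0.858 to 17.7 CPM. The single guide value of 0 was that of mir-41 in wild-type starved L1 replicate 2, whose limit was 1.84 CPM. Passengers together were 1.95 to 4.88% of both arms at the 2-8 cell stage, 0.255 to 1.5% at comma, 0.128 to 0.356% at pretzel and 0.106 to 0.426% in starved L1. The passenger share was thus lower in all 4 starved L1 libraries than in any 2-8 cell library, but its range in starved L1 overlapped those at comma and pretzel. In the first part every L1 library exceeded every embryo library. That is the opposite direction to the comparison with 2-8 cell embryos only, and the first part's embryos were of mixed age. The arm ratios were not tested in the staged series. The fitted log2 change of starved L1 minus comma had a median of -4.74 for the 6 passengers and -2.33 for the 6 guides, and the passenger value rests on arms with libraries at 0. The starved L1 values lie below every L1 library of the first part (2.61 to 21.4%). The mir-41 passenger was 69.4 to 90.4% of the passenger counts at the 2-8 cell stage, where it had 3013 and 2118 CPM in the null and 3152 and 3562 CPM in wild type. At comma it had 1236 and 302 CPM in the null and 1567 and 230 CPM in wild type. At pretzel it had 186 and 49.2 CPM in the null and 110 and 65.4 CPM in wild type, and in starved L1 it had only 7 and 0 counts in the null and 74 and 1 counts in wild type. The arms of mir-41 changed places in some of these libraries. Its guide was 1.03 to 2.21% of the gene's counts at the 2-8 cell stage, 2.9 to 35% at comma and 23.2 to 62.9% at pretzel. In starved L1 the guide had 2 and 95 counts in the null and 79 and 0 counts in wild type, so that it outnumbered the passenger in null replicate 2 and, narrowly, in wild-type replicate 1. From comma to starved L1 the passengers of mir-41 (edgeR adjusted p = 0.0129) and mir-40 (adjusted p = 0.00932) were called lower for the mean of both genotypes. The mir-40 passenger had 12 and 0 counts in the null and 0 and 0 counts in wild type in starved L1, against 106 and 174 in the null and 567 and 41 in wild type at comma.

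Between ebax-1 null and wild type, 0 of 12 members were called by edgeR at any stage, in the mean of 4 stages or in the test of a different step from pretzel to starved L1. At an unadjusted p under 0.05 there were 2 in starved L1 (the mir-37 guide and the mir-40 passenger), 1 in the mean of 4 stages, 1 in the difference of that step and 0 at the other stages, and DESeq2 called 1 member in starved L1 and 0 elsewhere. Of all arms 0% were called by edgeR at each stage and for the step, and 1.01% in the mean of 4 stages. At an unadjusted p under 0.05 there were 22 of 198 arms in starved L1, 18 in the mean of 4 stages and 14 for the step. DESeq2 called 13 arms in starved L1. In starved L1 the guides of the null minus wild type were 1.41 for mir-37 (interval 0.16 to 2.65, edgeR adjusted p = 0.301), 1.4 for mir-38 (-0.77 to 3.58), 1.22 for mir-36 (-0.17 to 2.61), 0.84 for mir-39 (-0.38 to 2.06) and 0.73 for mir-40 (-0.54 to 2.00) on the log2 scale. The estimates for all 6 guides were above 0, and both null libraries were above both wild-type libraries for mir-36, mir-37, mir-38 and mir-39, which share libraries and are not independent. The share of all arms with such an order of 2 against 2 libraries was not computed. Null replicate 1 was shallow: 3 counts equal 17.7 CPM there, and the mir-38 guide had 32 counts. In the mean of 4 stages the 6 guides ranged from 0.28 to 0.86 with a median of 0.55, while the median over all arms was 0.27.

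Likeness of level across libraries was measured against arms outside the family whose mean log2 CPM was 5 or more. The arms closest to the mean of the 6 guides in the first part were mir-4813_5p (Pearson r = 0.926), mir-67_5p* (0.920) and mir-49_5p* (0.918), over 42 libraries. For the mean of the 6 passengers they were mir-54_5p* (0.98), mir-82_5p* (0.959) and mir-4813_5p (0.948). In the staged series the closest to the guides were mir-61_5p* (0.839), mir-65_5p (0.827) and mir-64_5p (0.825), over 16 libraries. The closest to the staged passengers were mir-48_5p (0.789), mir-61_3p (0.788) and mir-65_5p (0.723). Among the 6 guides themselves r ranged from 0.926 to 0.995 over the 42 libraries and from 0.499 to 0.967 over the 16. These values describe libraries that share stage, scaling and depth, and the first part's are set largely by the contrast of L1 and embryo.

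Other embryonic and larval miRNAs were set beside the members. Of the 6 guides of the mir-51 family, also needed in embryos, 1 was called lower in wild-type L1 than in embryos, where 31% of all arms were, mir-51 (-1.83, SE 0.31, edgeR adjusted p = 2.97e-06), and the median of the 6 was 0.22. Of the 7 measured guides of the let-7 family with lin-4, which time larval development, 4 were called higher, where 24.9% of all arms were, among them mir-84 (3.14, SE 0.29, edgeR adjusted p = 8.73e-12) and lin-4 (2.57, SE 0.45, edgeR adjusted p = 6.33e-06), and 2 lower, mir-48 (-1.64, SE 0.25, edgeR adjusted p = 4.96e-07) and mir-241 (-2.13, SE 0.82, edgeR adjusted p = 0.0261).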

How the data were processed

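Small RNAs of whole animals were sequenced. Per the submitters' processing notes, the tools included HTSeq 0.13.5, SAMtools 1.13, Bowtie2 2.4.4, cutadapt 3.4 and DESeq2; no genome build is named there. The authors deposited 1 table of unscaled estimated counts (276 miRNA arms, 10 spike-ins and 10 edited mir-35 sequences), in which 70 of 696 member values end in 0.5, mostly on both arms of a gene at once; the cause was not tested. Values were rounded to whole counts. Each strain's mir-35 came from its own allele line. Tests across arms used edgeR 4.0.16 (robust quasi-likelihood fit, TMM factors, filterByExpr with minimum count 10 and total 15, Benjamini-Hochberg, threshold 0.05) in R 4.3.3, with 1 fit of 42 libraries (229 arms, biological coefficient of variation 0.453) and 1 of 16 (198 arms, 1.04). CPM use TMM factors. Ratios within libraries (pseudocount 0.5) were tested by permutation. DESeq2 1.42.0, RLE factors, library totals, TMM without the family, spike-in scaling, no filter, the compared groups only, replicate blocks and leaving out each library were alternatives. Leaving out 3 libraries with TMM factors under 0.75, and taking 6 sets of consecutive sample identifiers as units, were added after seeing the data. Scripts were tested on simulated data. Members, named arms (the 12, mir-35, mir-42 and the 3 most alike) and lists were chosen with earlier results of these data known. No molecular identifiers were used, so limits cover counting error only. Python 3.11.15, pandas 2.3.3 and matplotlib 3.10.9 were used.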

Additional observations from a re-analysis of the deposited data

Results flagged for a closer look

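In wild type, 24 groups of 6 values (12 arms, 2 stages) were searched for a library far from the others by the Dixon criterion at the 95% level, which chance meets in about 1 of 20 groups, and 3 were found. The mir-36 guide was at 1137 CPM in L1 replicate 1, against 177 to 287 CPM in the other 5. The mir-39 guide was at 7025 CPM in the same library, against 1990 to 3516 CPM. The mir-40 guide was at 12236 CPM in embryo replicate 3, against 23608 to 26950 CPM. Both L1 values are from 1 library, in which all 6 guides were the highest of the L1 group, and the call of each guide held without it and without embryo replicate 3.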

How the results depend on the processing

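Of 798 recomputed counts, 715 stayed within 1.5 times the reported one, and no change of a called arm reversed in 1803 recomputations, of which 1735 kept the call. Relative to TMM factors, the median of all arms in wild-type L1 minus embryo moved by 0.11 with RLE factors, 0.34 with library totals, -0.05 without the family and 0.98 with spike-ins, and all 12 members stayed called. Of member counts that moved, mut_3' L1 minus embryo was 7 with spike-in scaling and mir-82_3' L1 minus embryo was 10 without the libraries of low factor. The 3 members higher in mir-82_3' L1 became 0 with library totals, TMM without the family, spike-ins, no filter, the replicate block, the compared groups only and without the low-factor libraries, and 6 with DESeq2. In wild type, comma minus 2-8 cell gave 2 with DESeq2; pretzel minus comma gave 1 with library totals, TMM without the family, DESeq2 and no filter; starved L1 minus pretzel gave 1 with library totals and DESeq2 and 5 with no filter. In ebax-1 null, starved L1 minus pretzel gave 3 with no filter. For both genotypes, comma minus 2-8 cell gave 4 with spike-ins, 1 with DESeq2 and 1 with the replicate block; pretzel minus comma gave 4 without the family, 0 with spike-ins and 2 with DESeq2; starved L1 minus pretzel gave 3 with library totals, 2 without the family, 5 with spike-ins, 2 with DESeq2 and 6 with no filter. The null minus wild type in starved L1 gave 1 with DESeq2. The 7 guide pairs of wild type became 3 without the low-factor library and 0 with the replicate block (sign changes of 6 pairs, smallest raw p 0.0312), and the 11 pairs over 6 strains became 0 with the identifier sets as units. The cause of these moves was not tested.

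Leaving out 1 library gave 12 members for wild type, for the mean of 6 strains and for seed_rev, 10 to 12 for seed_mut and mut_3', and 6 to 10 for mir-82_3' and seed_rev_no_bulge, in L1 minus embryo. It gave 0 to 4 for the mir-82_3' difference in change, 0 to 6 for mir-82_3' in L1, and 0 for the other edited strains. In the staged part it gave 0 to 1, 0 to 0 and 1 to 7 for the 3 wild-type steps, 0 to 0, 0 to 0 and 0 to 3 for the null, 0 to 1, 0 to 2 and 0 to 8 for both genotypes, 7 to 9 for starved L1 minus comma, and 0 to 1 for the null minus wild type in starved L1 and in the mean of 4 stages. Guide pairs ranged from 3 to 8 in wild type and from 10 to 11 over 6 strains, and guides against mir-35 from 0 to 1. The fits and permutations reported as main results do not use replicate numbers as pairs, and the counts over 21 pairs of the same strain and number are descriptions: deviations of embryo and L1 libraries with the same strain and number correlated above 0.1 in 14 of 21 pairs (lowest -0.018), and in 3 of 4 staged stages. The block changed no other count by over 1.5 times. Of 96 staged passenger values 31 were 0, some of them in deep libraries: the mir-36 passenger had 0 counts in null comma replicate 2, where 3 counts equal 0.878 CPM, against 36 counts in replicate 1. The part of depth was not tested.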
